A study of Mus musculus with 9 samples.

Results

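The genes described are 10 regulators and secreted products of the integrated stress response: *Atf4*, *Atf5*, *Atf3*, *Ddit3*, *Nupr1*, *Trib3*, *Chac1*, *Sesn2*, *Fgf21* and *Gdf15*. They are 10 of the 52636 Ensembl genes counted when total RNA of the left ventricle of C57BL6J mice aged 16 weeks was sequenced in bulk, to ask what loss of VDAC2 does to the heart, and 9 of the 10 passed the expression filter that left 16322 genes for testing. By the study's design, a KO mouse carries *Vdac2* flox alleles with Cre driven by the αMHC promoter, which is active in cardiac myocytes from development on, so the other cells of the ventricle keep the gene. By the same design a WT mouse is a littermate with either the flox allele or the Cre alone, so controls share an allele or the transgene with the KO. The *Vdac2* level goes against the label in 5 of the 9 libraries, so the genotype of a given library is not asserted here. The label is WT for libraries 1 to 5 and KO for libraries 6 to 9, and the labels do not tie a library to an animal, so the p-values measure the spread between these libraries.

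The integrated stress response is the pathway by which several kinases, each sensing a different stress, phosphorylate the translation factor eIF2. Most protein synthesis is then lowered, while the mRNA of the transcription factor ATF4 is translated more, so the level of *Atf4* RNA alone is not a measure of ATF4 activity. ATF4 and its C/EBP partners switch on genes of amino acid synthesis, transport and tRNA charging, the pseudokinase TRIB3 and the transcription factor CHOP (*Ddit3*). In striated muscle with impaired mitochondria the pathway is known for the release of the hormones FGF21 and GDF15, called mitokines. VDAC2 is a channel of the outer mitochondrial membrane.

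*Vdac2* (ENSMUSG00000021771) was checked first, as the deleted gene. Under the WT label its level, in CPM (counts scaled to a common library size), was 20.2, 366, 58.5, 365 and 21.3 in libraries 1 to 5. Under the KO label it was 384, 20.5, 421 and 19.1 CPM in libraries 6 to 9. Libraries 1, 3 and 5 were thus low despite a WT label, and libraries 6 and 8 were high despite a KO label. All libraries keep their deposited label here. The 10 genes were chosen by how their levels lay in the libraries with *Vdac2* under 100 CPM against those over 300 CPM, so values in that arrangement are given as a description, with no test. It sets libraries 1, 5, 7 and 9, called low-*Vdac2*, beside libraries 2, 4, 6 and 8, called high-*Vdac2*. The values nearest the limits were 21.3 CPM in library 5 and 365 CPM in library 4. Library 3, at 58.5 CPM, is shown apart, and its cardiomyocyte markers were low as well, as given below. Only the deposited labels were tested.

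The total count was between 27345052 and 32469135 in the libraries labelled WT and between 36477141 and 44673988 in those labelled KO, so that 3 counts, the smallest level taken as shown, lay between 0.0693 and 0.114 CPM (counting error only). Label, flow-cell lane and the levels of *Xist* and the Y-linked genes coincide and cannot be told apart, whereas the low-*Vdac2* and high-*Vdac2* libraries each hold 2 libraries of either label. *Xist* was at 0.037 to 0.152 CPM under the WT label and at 335 to 587 CPM under the KO label. The Y-linked *Ddx3y* was at 126 to 170 CPM under the WT label and at 0 to 0.026 CPM under the KO label. Library 3 stood apart from all other libraries. Its 6 cardiomyocyte markers summed to 11770 CPM, against 40960 to 46930 in the low-*Vdac2* and 48120 to 57440 in the high-*Vdac2* libraries. Its 5 macrophage markers summed to 1547 CPM, against 457 to 643 and 266 to 419. The cardiomyocyte markers were present in every library, as the tissue label asks, but *Myh6* had 1746 CPM in library 3, where the other 8 libraries had 15810 to 24710 CPM. *Vdac2* in library 3 was at 0.156 of the high-*Vdac2* median, and the 6 cardiomyocyte markers there were at 0.083 (*Myh6*) to 0.69 (*Actc1*) of theirs. Whether the low *Vdac2* level of library 3 goes with these markers was not tested. In bulk tissue, fewer cells of a type and less RNA per cell cannot be told apart.

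The promoters were searched for the C/EBP-ATF response element, the site bound by ATF4 with a C/EBP partner, since it is the sequence through which ATF4 acts on many of its known targets. The letters TGATGNAA were searched on both strands from 250 bases before to 50 bases after each RefSeq gene start (GRCm38.p6), and all 10 genes matched, with 12 starts. The element was found at 5 of the 12 starts (41.7%), against 1304 of 32851 promoters (3.97%) and 6 of the 23 starts of other ATF4 targets (26.1%), of which 20 of 26 genes matched. It lay at *Atf3* (chr1:191183425-191183454, gene on the minus strand), *Trib3* (chr2:152344028-152344057, minus strand), *Chac1* (chr2:119351038-119351067, plus strand), *Fgf21* (chr7:45615611-45615640, minus strand) and *Nupr1* (chr7:126625562-126625591, minus strand). The 30 bases around each match are shown 5′ to 3′ on the gene's strand, with the element in capitals; all 5 matches are on the opposite strand, so they read as the reverse complement.

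Atf3: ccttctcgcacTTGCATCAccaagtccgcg
Trib3: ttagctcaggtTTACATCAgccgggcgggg
Chac1: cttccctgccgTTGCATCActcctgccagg
Fgf21: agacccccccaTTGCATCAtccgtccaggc
Nupr1: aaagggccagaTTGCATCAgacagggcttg

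The element ran from -193 to -186 relative to the start at *Chac1*, from -139 to -132 at *Fgf21*, from -110 to -103 at both *Atf3* and *Nupr1*, and from 15 to 22 bases after the start at *Trib3*. *Atf4*, *Atf5*, *Ddit3*, *Gdf15* and *Sesn2* held no match in this window. The cAMP response element TGACGTCA, which ATF3 and other ATF proteins bind, was at 0 of the 12 starts and at 588 of all promoters (1.79%). The endoplasmic reticulum stress element bound by ATF6 was also at 0 of the 12, and at 39 of all promoters (0.119%).

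In the arrangement by *Vdac2*, 8 of the 9 tested genes were higher in all 4 low-*Vdac2* libraries than in any of the 4 high-*Vdac2* libraries, and 0 were lower. Over all tested genes 1169 (7.16%) lay higher without overlap and 804 (4.93%) lay lower. For *Atf5*, *Trib3*, *Chac1* and *Gdf15* the medians were also at least 2-fold apart, which was the case for 143 of all tested genes (0.876%). The exception was *Atf3*. These counts follow from how the genes were chosen. The range of the differences, from 1.02-fold for *Atf3* to 4.78-fold for *Gdf15*, and the place of library 3, are given gene by gene.

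**Figure D1:**
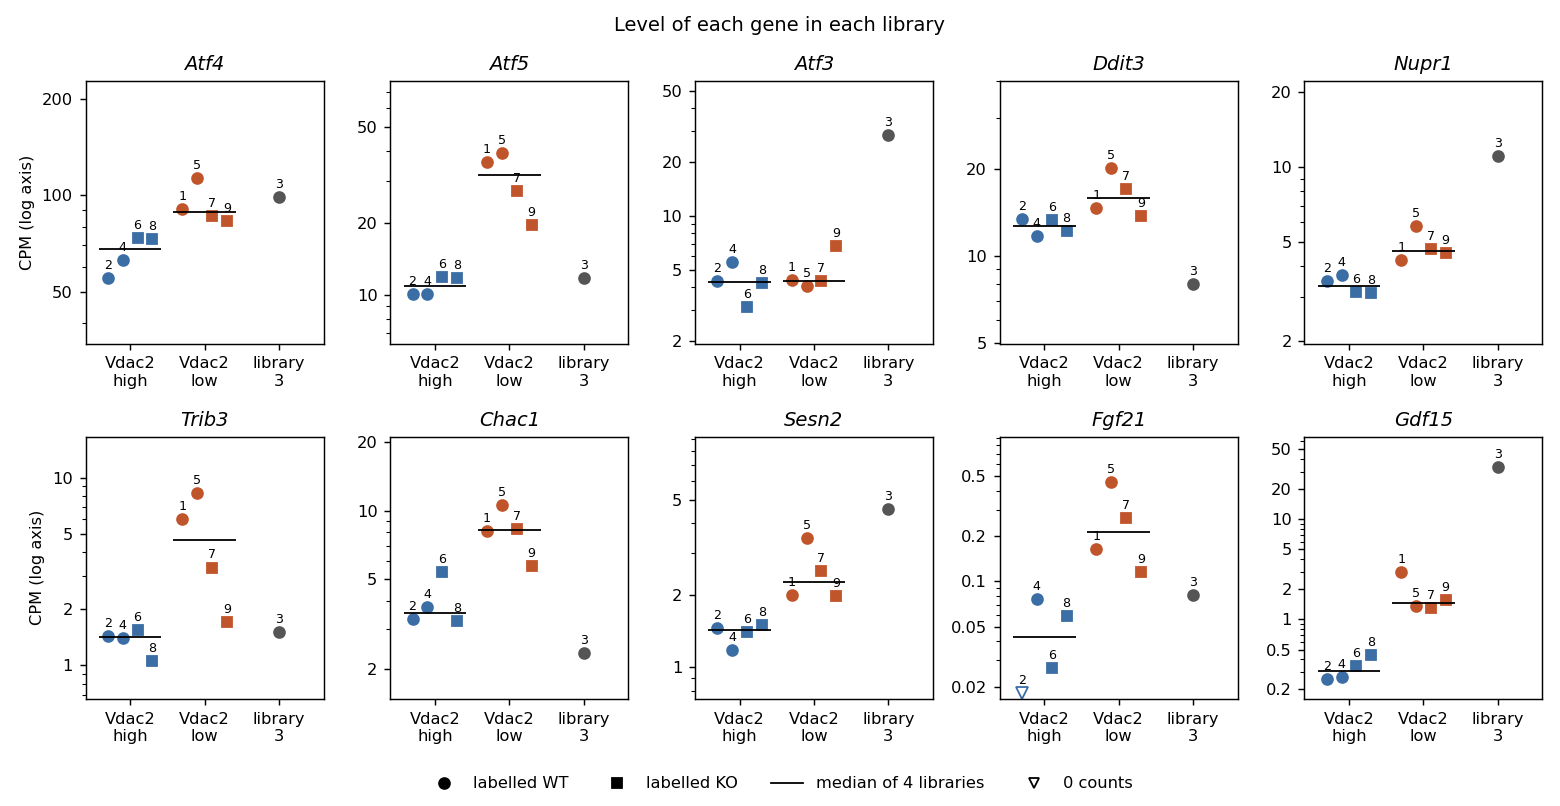
Level of each of the 10 genes in CPM (vertical log axis, with its own range in each panel) in every library, with the high-Vdac2 libraries, the low-Vdac2 libraries and library 3 set apart, the label shown by the marker shape, lines at the medians and an open triangle for 0 counts. The low-Vdac2 points lie above the high-Vdac2 points in every panel except that of Atf3, and library 3 is far above all other libraries for Atf3 (28.5 CPM) and Gdf15 (33.5 CPM).

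*Atf4* (ENSMUSG00000042406; GRCm38 chromosome 15, 80255184 to 80257541), the central transcription factor of the pathway, was the most abundant of the 10. Its level was 91.0, 114, 86.1 and 83.1 CPM in libraries 1, 5, 7 and 9, low in *Vdac2*, and 55.3, 62.8, 73.9 and 73.1 CPM in libraries 2, 4, 6 and 8, high in *Vdac2*. The medians were 88.5 and 67.9 CPM, a ratio of 1.30. Library 3 had 98.7 CPM. The difference was small next to that of several of its targets, and library 9 lay only 1.12-fold above library 6.

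*Atf5* (ENSMUSG00000038539; chromosome 7, 44812256 to 44816658), a relative of ATF4 known for the mitochondrial unfolded protein response, was at 35.9, 38.9, 27.2 and 19.6 CPM in libraries 1, 5, 7 and 9. It was at 10.1, 10.2, 11.9 and 11.8 CPM in libraries 2, 4, 6 and 8, a nearly constant level. The ratio of medians was 2.88. Library 3, at 11.8 CPM, lay with the high-*Vdac2* libraries. The gene shares 82 exon bases on the opposite strand with each of *Il4i1* and *Nup62*, and the strand setting of the counting is not given in the sources used here.

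*Atf3* (ENSMUSG00000026628; chromosome 1, 191170296 to 191218039), an early stress-response transcription factor, did not follow this order. It was at 4.40, 4.09, 4.32 and 6.83 CPM in libraries 1, 5, 7 and 9 and at 4.35, 5.55, 3.10 and 4.21 CPM in libraries 2, 4, 6 and 8, so the ranges overlapped and the medians were 1.02-fold apart. Library 3 had 28.5 CPM, 6.65-fold above the high-*Vdac2* median and above every other library. Immediate early genes, which are induced by acute stimuli and by tissue handling, were mixed in that library. Against the high-*Vdac2* median, 7 of the 9 tested were higher there and 2 were lower, with a median log2 ratio of 0.95. *Btg2* was at 81.5 CPM, *Jun* at 38.9 CPM and *Junb* at 52.4 CPM, above all other libraries, whereas *Dusp1* was lowest of all libraries at 9.20 CPM and *Nr4a1* was at 3.24 CPM (log2 ratios -1.58 and -1.06). *Junb* and *Nr4a1* are named after their values were seen. Their part in the *Atf3* value was not tested.

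*Ddit3* (ENSMUSG00000025408; chromosome 10, 127290774 to 127296288) encodes CHOP, which is linked to cell death under prolonged stress. It was at 14.6, 20.0, 17.0 and 13.7 CPM in the low-*Vdac2* libraries 1, 5, 7 and 9 and at 13.4, 11.8, 13.3 and 12.2 CPM in libraries 2, 4, 6 and 8. The groups were barely apart, by 1.02-fold at the nearest libraries, with a ratio of medians of 1.25. Library 3 was lowest of all at 7.98 CPM. The gene shares 105 exon bases on the same strand with a second gene model of that name, which has no row of its own in the counts, and on the opposite strand 68 with *Mars*, itself an ATF4 target, and 13 with *Gm4189*, so its counts are uncertain.

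*Nupr1* (ENSMUSG00000030717; chromosome 7, 126623249 to 126630861), a small stress-induced chromatin protein, was at 4.23, 5.80, 4.69 and 4.53 CPM in libraries 1, 5, 7 and 9. It was at 3.47, 3.69, 3.16 and 3.12 CPM in libraries 2, 4, 6 and 8. The low-*Vdac2* values were narrowly higher, with a ratio of medians of 1.39, and library 3 had 11.1 CPM.

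*Trib3* (ENSMUSG00000032715; chromosome 2, 152337422 to 152344032), a pseudokinase that feeds back on ATF4, was at 6.04, 8.27, 3.32 and 1.71 CPM in libraries 1, 5, 7 and 9. In libraries 2, 4, 6 and 8 it was at 1.43, 1.41, 1.54 and 1.06 CPM. The ratio of medians, 3.30, spans a wide spread: libraries 5 and 1 were highest, while library 9 lay 1.11-fold above library 6. Library 3 had 1.51 CPM, a high-*Vdac2* level.

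*Chac1* (ENSMUSG00000027313; chromosome 2, 119351229 to 119354381), a glutathione-degrading enzyme, was at 8.11, 10.6, 8.30 and 5.68 CPM in libraries 1, 5, 7 and 9. It was at 3.33, 3.73, 5.36 and 3.24 CPM in libraries 2, 4, 6 and 8, a ratio of medians of 2.33. Library 9, the lowest of the low-*Vdac2* libraries, lay only 1.06-fold above library 6, the highest of the others. Library 3 was below all 8 at 2.35 CPM.

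*Sesn2* (ENSMUSG00000028893; chromosome 4, 132492032 to 132510501), a leucine-sensing inhibitor of mTORC1, was at 2.00, 3.45, 2.53 and 1.98 CPM in libraries 1, 5, 7 and 9 and at 1.46, 1.18, 1.41 and 1.50 CPM in libraries 2, 4, 6 and 8. The ratio of medians was 1.58, with no overlap. Library 3 had 4.58 CPM, above all other libraries.

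*Fgf21* (ENSMUSG00000030827; chromosome 7, 45613886 to 45615490), a mitokine that the liver releases in fasting, was close to the detection limit and failed the expression filter, so it entered no test. It had 5, 15, 10 and 5 counts in libraries 1, 5, 7 and 9 and 0, 2, 1 and 2 counts in libraries 2, 4, 6 and 8. Every low-*Vdac2* library had more counts than any high-*Vdac2* library. Summed over libraries, 35 counts stood against 5, a depth-corrected ratio of 6.07 that, like the other ratios in this arrangement, is a description. Library 3 had 3 counts. Of the 4 hepatocyte markers, *Serpina1a* had 0 counts in every library, *Alb* at most 3 and *Apoa1* at most 5, while *Ttr* had between 3 and 18 counts, a range like that of *Fgf21*. Their sum overlapped, at 0.237 to 0.531 CPM in the low-*Vdac2* and 0.186 to 0.329 CPM in the high-*Vdac2* libraries.

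*Gdf15* (ENSMUSG00000038508; chromosome 8, 70629393 to 70632456), a mitokine of the TGF-β family that acts on the hindbrain to lower appetite, had the highest ratio of medians of the 9 tested genes. It was at 2.99, 1.37, 1.29 and 1.55 CPM in libraries 1, 5, 7 and 9 and at 0.256, 0.266, 0.345 and 0.441 CPM in libraries 2, 4, 6 and 8. The medians were 4.78-fold apart, and the nearest libraries, 7 and 8, were 2.93-fold apart. Library 3 reached 33.5 CPM from 1242 counts, which was 22.9-fold above the low-*Vdac2* median and 110-fold above the high-*Vdac2* median.

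Library 3 thus did not extend the low-*Vdac2* pattern evenly. *Atf3*, *Gdf15*, *Sesn2* and *Nupr1* were higher there than in any of the other 8 libraries, whereas *Atf5*, *Ddit3*, *Trib3* and *Chac1* were below all 4 low-*Vdac2* libraries, with *Ddit3* and *Chac1* below the high-*Vdac2* libraries too. None of the 9 tested genes changed direction against the high-*Vdac2* median under the 4 scalings tried, although scaling by the total count alone moved the median log2 ratio of all genes in library 3 from -0.02 to 0.44 and brought *Ddit3* from -0.67 to -0.20 and *Chac1* from -0.59 to -0.14 against the high-*Vdac2* median. With library 3 counted among the low-*Vdac2* libraries, 4 of the 9 genes stayed without overlap (*Atf4*, *Gdf15*, *Sesn2* and *Nupr1*), against 976 of all tested genes (5.98%). Genes of other lists differed in library 3 as well. Their median log2 ratio to the high-*Vdac2* median was -2.35 for the cardiomyocyte, 2.15 for the macrophage and 0.79 for the fibroblast markers. It was 1.13 for the ATF6 and IRE1 targets described below. The fibroblast markers and these targets were mixed, with *Dcn* (-0.61) and *Herpud1* (-1.79) among the genes that were lower there. The part of these lists in the values of library 3 was not tested.

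**Figure D2:**
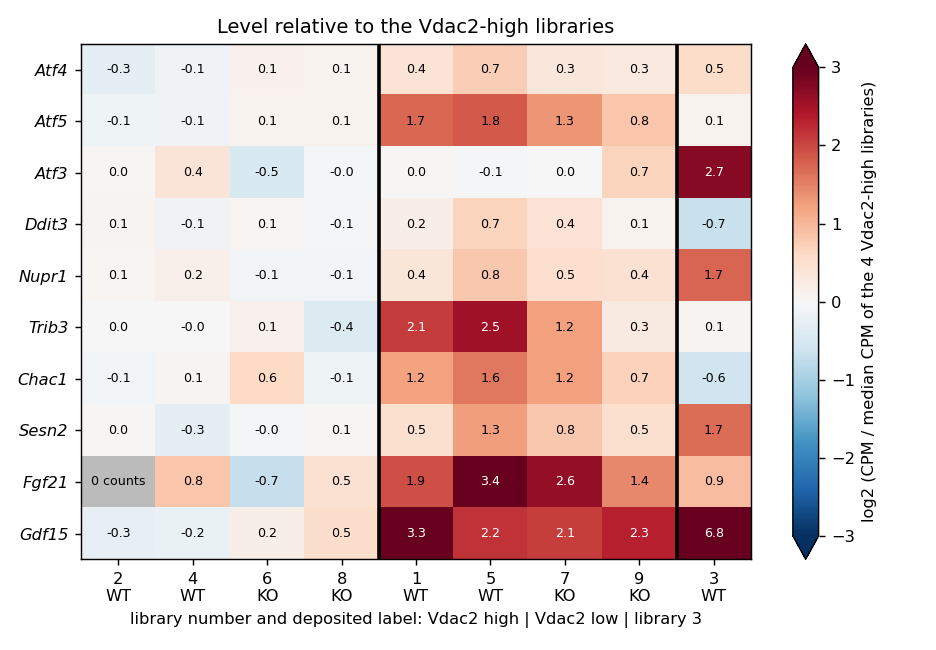
Level of the 10 genes in each library relative to the median of the 4 high-Vdac2 libraries, as colour and number on a log2 scale, with the libraries in columns ordered as high-Vdac2, low-Vdac2 and library 3 (grey, 0 counts). The low-Vdac2 columns are above 0 for every gene except Atf3, and the library 3 column is split, with Gdf15 and Atf3 highest and Ddit3 and Chac1 below 0.

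The 4 low-*Vdac2* libraries were not alike. Library 5, labelled WT, had the highest value of 7 of the 9 genes (*Atf4*, *Atf5*, *Ddit3*, *Trib3*, *Chac1*, *Sesn2* and *Nupr1*), and library 9, labelled KO, had the lowest value of 6 (*Atf4*, *Atf5*, *Ddit3*, *Trib3*, *Chac1* and *Sesn2*). *Gdf15* was highest in library 1 and *Atf3* in library 9. *Nppa*, the atrial natriuretic peptide gene that is re-expressed in the strained ventricle, had the opposite order at its ends, 157 CPM in library 5 and 1523 CPM in library 9, with 951 CPM in library 1 and 400 CPM in library 7. In the high-*Vdac2* libraries it was between 72.8 and 104 CPM, and in library 3 it was 3347 CPM.

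Within each label the arrangement could be looked at in 2 libraries against 2. Among the libraries labelled WT the ratio of the low to the high *Vdac2* libraries was 8.35 for *Gdf15*, 5.05 for *Trib3*, 3.70 for *Atf5* and 2.65 for *Chac1*. Among those labelled KO it was 3.61, 1.94, 1.98 and 1.63. *Atf4* had 1.73 and 1.15, *Sesn2* 2.06 and 1.55, *Ddit3* 1.38 and 1.21 and *Nupr1* 1.40 and 1.47. The ratios were thus nearer to 1 under the KO label for each of these genes except *Nupr1*, a difference that was not tested. *Atf3* turned direction, with 0.857 among the libraries labelled WT and 1.53 among those labelled KO.

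Levels between genes were compared as CPM per kilobase of exon. In the low-*Vdac2* libraries the medians were, in order, 37.5 for *Atf4*, 15.9 for *Atf5*, 9.23 for *Ddit3*, 5.01 for *Chac1*, 2.20 for *Trib3*, 2.02 for *Atf3*, 1.83 for *Nupr1*, 0.788 for *Gdf15*, 0.652 for *Sesn2* and 0.225 for *Fgf21*. Neighbours in this order overlapped over the 4 libraries for *Atf5* and *Ddit3*, for *Chac1* and *Trib3*, for *Trib3*, *Atf3* and *Nupr1*, and for *Gdf15* and *Sesn2*. All 5 transcription regulators had higher medians than both mitokines. In library 3 *Gdf15* was second at 18.1, after *Atf4* at 41.9 and before *Atf3* at 13.2, whereas in the high-*Vdac2* libraries it was ninth at 0.165.

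The comparison the deposited labels imply, KO against WT, was tested over 16322 genes with edgeR (quasi-likelihood test, Benjamini-Hochberg adjustment). It called 9 genes (0.0551%), or 62 without library 3, and 0 of the 9 tested stress-response genes were among them, with 0 at an unadjusted p under 0.05, beside 997 of all tested genes (6.11%). The genes called include *Xist* and the Y-linked *Ddx3y* (edgeR adjusted p = 1.1e-07 for each), whose levels coincide with the label. Which of the calls go with *Vdac2* was not tested. DESeq2 called 70 of 15796 genes (0.443%) and 0 of the 9, but gave no adjusted p for *Atf3* and *Gdf15*. With 9 genes these counts of 0 are near the shares over all genes. *Atf4* had a mean of 84.3 ± 24.6 CPM (SD, n = 5) under the WT label and of 79.0 ± 6.55 CPM (SD, n = 4) under the KO label (log2 fold change -0.09, standard error 0.21, edgeR adjusted p = 0.87). *Gdf15* had the largest log2 fold change of the 9, -3.08 (standard error 1.45, edgeR adjusted p = 0.68), from 7.68 ± 14.5 CPM (SD, n = 5) to 0.906 ± 0.603 CPM (SD, n = 4). It rested on library 3: without that library the log2 fold change of *Gdf15* was -0.44 and that of *Atf3*, -1.02 with all libraries (edgeR adjusted p = 0.68), was 0.0049. *Trib3* had -0.97 (standard error 0.64, edgeR adjusted p = 0.68). For *Atf5*, *Ddit3*, *Chac1*, *Sesn2* and *Nupr1* the log2 fold changes lay between -0.55 and 0.05 with edgeR adjusted p between 0.68 and 1. Without library 3 the log2 fold changes of *Sesn2* and *Nupr1* went from -0.45 and -0.55 to -0.14 and -0.16. That of *Atf5* went from -0.28 to -0.44. With all libraries the SD under the WT label was larger, for each of the 9, than the difference between the label means. Under the KO label the SD was smaller than that difference for *Gdf15*, *Atf3*, *Trib3*, *Sesn2* and *Nupr1*. *Vdac2* does not separate the labels (log2 fold change 0.35, standard error 1.19, edgeR adjusted p = 0.92).

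With the *Vdac2* level as a covariate and library 3 left out, a fit chosen after the data were seen, the label was called for 324 of 16251 genes (1.99%) and again for 0 of the 9. *Trib3* was the 1 of the 9 with an unadjusted p under 0.05, which 2670 of all tested genes had in this fit (16.4%), so nothing is read from it. Its log2 fold change between the labels was -0.98 (standard error 0.34, edgeR unadjusted p = 0.019, adjusted p = 0.20), and among the low-*Vdac2* libraries the 2 labelled WT were 2.84-fold above the 2 labelled KO. The other 8 had log2 fold changes between -0.30 and 0.01, with edgeR adjusted p between 0.55 and 0.98.

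**Figure D3:**
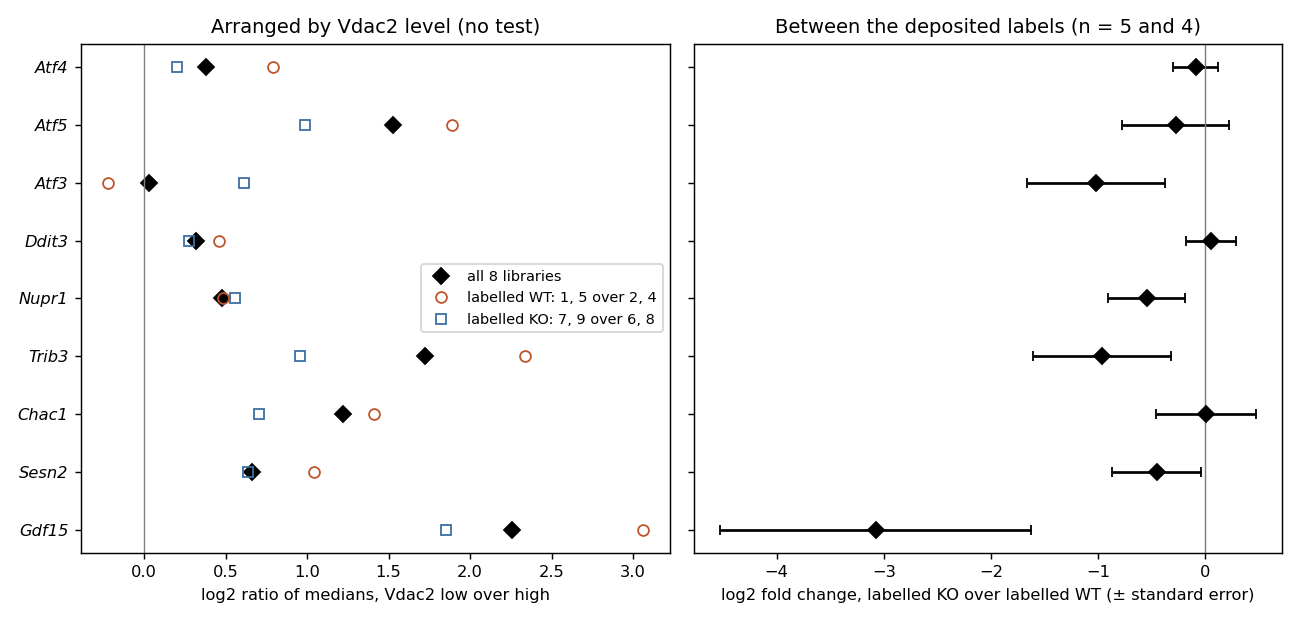
Log2 ratios of the 9 tested genes: the low-Vdac2 over the high-Vdac2 median (described, with the within-label values), and labelled KO over labelled WT from edgeR with standard error bars. The ratios by Vdac2 run from 0.03 for Atf3 to 2.26 for Gdf15, and the label estimate with the widest bar is that of Gdf15 (-3.08, standard error 1.45).

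The other genes of the pathway were taken from lists written with earlier results of these data known, and for each the tested members without overlap are counted against the 7.16% of all genes that lay higher and the 4.93% that lay lower. Upstream of ATF4, the 4 eIF2 kinases all overlapped. *Eif2ak1*, the haem-regulated kinase also used by mitochondrial stress, was between 21.5 and 25.4 CPM in the low-*Vdac2* libraries and between 23.8 and 25.6 CPM in the high-*Vdac2* ones. *Eif2ak2*, the RNA-sensing PKR, was between 24.3 and 29.5 and between 19.7 and 25.0 CPM. *Eif2ak3*, the ER kinase PERK, was between 11.4 and 13.4 and between 12.2 and 13.4 CPM, and *Eif2ak4*, the amino acid sensor GCN2, between 11.8 and 14.1 and between 12.5 and 15.6 CPM. Library 3 was above all of these ranges, at 29.6, 42.2, 21.4 and 16.3 CPM.

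Of the mitochondrial relay, in which the protease OMA1 cleaves DELE1 to activate the haem-regulated kinase, *Dele1* lay lower without overlap. It was between 90.1 and 101 CPM in the low-*Vdac2* libraries and between 110 and 126 CPM in the high-*Vdac2* libraries (ratio of medians 0.815), and at 29.9 CPM in library 3. *Oma1* overlapped, at 35.1 to 41.2 against 38.1 to 45.0 CPM, with 22.4 CPM in library 3. Of the eIF2 phosphatase subunits, the constitutive *Ppp1r15b* lay higher by 1.04-fold, at 36.6 to 38.3 against 35.2 to 36.5 CPM, and the stress-induced *Ppp1r15a* (GADD34) overlapped, at 11.0 to 16.4 against 8.56 to 12.7 CPM. Among the 8 eIF2 and eIF2B subunits 1 lay higher and 0 lower. It was *Eif2s2*, the beta subunit of eIF2, at 37.4 to 43.5 against 32.5 to 35.2 CPM, while *Eif2b5* (63.8 to 77.3 against 69.6 to 76.5 CPM) and *Eif2s1* (41.0 to 49.4 against 40.2 to 46.1 CPM) overlapped. Of the 4 C/EBP partners *Cebpg*, *Cebpb* and *Cebpd* overlapped, with *Cebpg* at 39.4 to 50.4 against 36.1 to 40.3 CPM, and 1 lay higher, *Cebpa* (named for this), at 5.14 to 7.16 against 3.05 to 4.77 CPM.

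Downstream, 13 of 26 other ATF4 targets (50%) lay higher without overlap and 2 lay lower, with a median log2 ratio of 0.40 against 0.005 over all tested genes. The 13, named here after their values were seen, hold enzymes of serine and one-carbon metabolism (*Psat1*, *Phgdh*, *Mthfd2*, *Aldh1l2*), of asparagine and proline synthesis (*Asns*, *Aldh18a1*, *Pycr1*), the amino acid transporter subunits *Slc7a5* and *Slc3a2*, and the tRNA synthetases *Nars*, *Sars*, *Gars* and *Mars*. Other targets of these kinds overlapped, among them *Psph*, *Shmt2*, *Slc7a11*, *Slc7a1* and *Wars*. The 2 that lay lower were *Vldlr* and *Gpt2*. *Mthfd2*, the mitochondrial folate enzyme, was between 13.3 and 33.9 CPM in the low-*Vdac2* libraries and between 1.99 and 2.74 CPM in the high-*Vdac2* libraries. *Asns*, asparagine synthetase, was between 7.32 and 17.3 CPM against 2.49 to 3.23 CPM. The 3 most abundant targets were *Vldlr*, a lipoprotein receptor that lay lower (456 to 563 against 633 to 731 CPM), *Slc38a2*, an amino acid transporter that overlapped (215 to 297 against 236 to 295 CPM), and *Nars*, higher at 99.5 to 121 against 84.0 to 91.1 CPM. Between the labels 0 of the 26 were called by edgeR, with 1 at an unadjusted p under 0.05, where 6.11% of all tested genes were.

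The ER unfolded protein response also has branches that do not run through ATF4. Of 16 targets of ATF6 and IRE1, 0 lay higher and 0 lower, with a median log2 ratio of 0.02; these counts are near the shares over all genes, and the difference from the ATF4 targets was not tested. *Hspa5*, the ER chaperone BiP, was between 571 and 693 CPM in the low-*Vdac2* libraries and between 643 and 729 CPM in the high-*Vdac2* libraries. In library 3 the same list had a median of 1.13 on the log2 scale above the high-*Vdac2* level, and *Hspa5* was at 1032 CPM. The next most abundant of the list, the chaperones *Hsp90b1* and *Calr*, also overlapped, at 405 to 493 against 379 to 434 CPM and at 233 to 303 against 233 to 264 CPM. Of 8 mitochondrial chaperones and proteases 0 lay higher and 1, *Hspd1* (named for this), lay lower, at 114 to 137 against 139 to 151 CPM. The most abundant of that list, *Hspa9*, *Trap1* and *Yme1l1*, overlapped, with *Hspa9* at 771 to 917 against 869 to 925 CPM. The 12 paralogues of the members, such as other sestrins and tribbles, all overlapped. The most abundant were *Atf6* (202 to 292 against 184 to 240 CPM), *Sesn1* (141 to 179 against 154 to 193 CPM) and *Atf2* (39.7 to 45.8 against 43.7 to 47.2 CPM).

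Of the 7 receptors and co-receptors listed for the mitokines, 3 were at or near 0. *Gfral*, the receptor of GDF15 in the brainstem, had 0 counts in all 9 libraries, and *Klb*, the co-receptor of FGF21, had at most 2. *Fgfr4* had at most 4 counts. *Fgfr1*, *Fgfr2*, *Fgfr3* and *Ret*, the co-receptor of GFRAL, were tested. *Fgfr2* lay higher without overlap, at 0.915 to 1.25 against 0.304 to 0.647 CPM, and the other three overlapped, with *Fgfr1* at 13.2 to 19.3 against 14.7 to 15.9 CPM, *Fgfr3* at 5.31 to 6.60 against 5.78 to 8.78 CPM and *Ret* at 3.83 to 9.03 against 4.97 to 8.14 CPM. Library 3 had 2.81 CPM of *Fgfr2* and 42.1 CPM of *Fgfr1*.

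**Figure D4:**
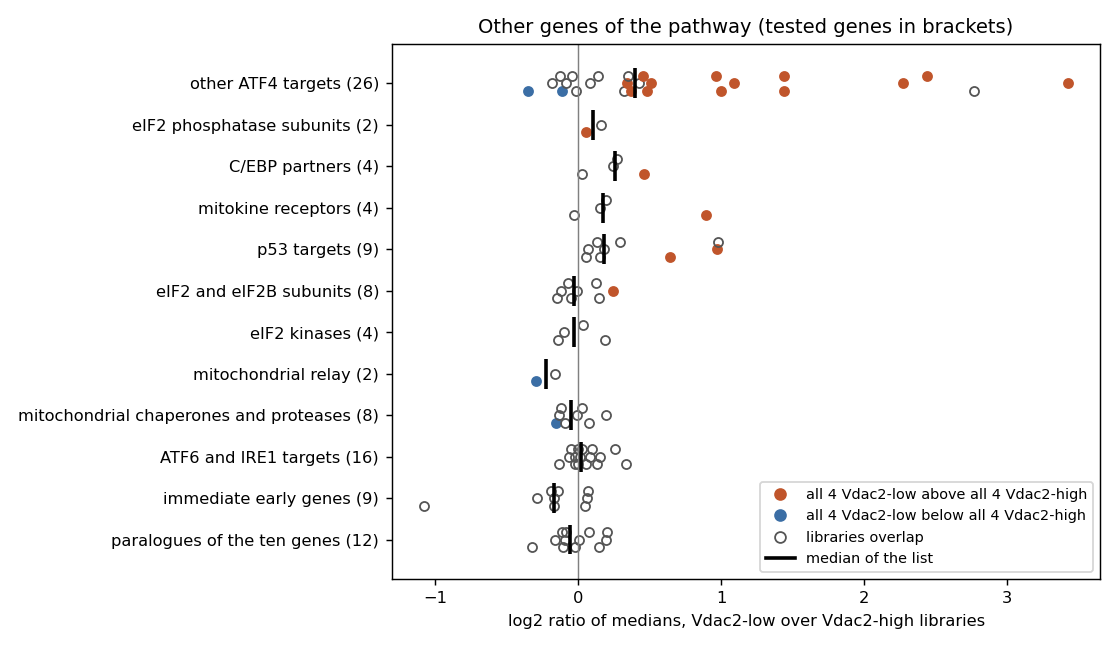
Log2 ratio of the low-Vdac2 to the high-Vdac2 median for every tested gene of each list (1 point a gene), with filled points for genes whose 4 low-Vdac2 libraries lie all above (orange) or all below (blue) the 4 high-Vdac2 libraries, open points for overlap and a tick at the list's median. The other ATF4 targets have 13 of 26 points filled orange and a median of 0.40, while the eIF2 kinases and the ATF6 and IRE1 targets have none filled.

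Genes of other cell types were set beside the members. Between the low-*Vdac2* and the high-*Vdac2* libraries the summed macrophage markers were 457 to 643 against 266 to 419 CPM, with 3 of 5 markers higher without overlap, and the summed fibroblast markers 1279 to 1348 against 881 to 1159 CPM, with 2 of 6 higher. The 6 cardiomyocyte markers overlapped one by one, although their sums did not, and the 5 endothelial markers summed to 446 to 592 against 564 to 692 CPM, with 1 lower. Over all tested genes 7.16% lay higher without overlap and 4.93% lay lower. No marker of these 4 lists was at 0 in every library, and their part in the levels of the stress-response genes was not tested.

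For each tested gene the most similar gene in these 9 libraries was sought by Pearson's r of log2 CPM, given here as a measure of likeness. The pairs were *Atf4* with *Gm2415* (0.949), *Atf5* with *Tfcp2l1* (0.953), *Atf3* with *Cybc1* (0.986), *Ddit3* with *Tmem181b-ps* (0.981), *Trib3* with *Map6d1* (0.957), *Chac1* with *Gm22058* (0.955), *Gdf15* with *Tnip1* (0.992), *Sesn2* with *Gm24616* (0.976) and *Nupr1* with *Selplg* (0.989). Each was the highest among all other tested genes and rests on 9 libraries that share lanes within a label. Without library 3 the most similar gene was another one for all 9, such as *Kcnab2* for *Atf5* (0.993), *Il17ra* for *Trib3* (0.993) and *Ryr1* for *Chac1* (0.987), so none of the pairs kept its place. The pairs named first then had values between 0.862, for *Atf3*, and 0.973, for *Gdf15*.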

How the data were processed

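Left ventricular total RNA was made into 9 stranded, ribosomal RNA-depleted libraries and sequenced with 50-base single-end reads. The authors deposited raw read counts per Ensembl gene on GRCm38, not normalized; their processing notes name STAR 2.7.2c and featureCounts 1.6.3. Not given in the sources used here are how multi-mapped reads were counted, the strand setting and the annotation release, so genes that share exon bases with another are uncertain. Symbols were found for 52403 of 52636 genes and coordinates are from GENCODE M21. The study left out 1 WT sample because its RNA was of poor quality, without naming it, so all 9 libraries were used. Library 3, labelled WT, stood apart, and whether it is that sample is not stated. No pair of libraries agreed within sampling noise (lowest chi-square per degree of freedom 6.72).

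Libraries were grouped by the deposited labels only (5 WT, 4 KO). edgeR 4.0.16 (R 4.3.3) was run with filterByExpr (16322 genes), TMM scaling, robust dispersions and the quasi-likelihood F-test, with Benjamini-Hochberg adjustment over all tested genes at 0.05. CPM are counts scaled by the TMM library size, and each standard error is the size of the log2 fold change divided by the root of its F value. DESeq2 1.42.0, other scalings, no filter, mitochondrially encoded genes left out, the *Vdac2* level as a covariate and each library left out were alternatives. The arrangement by *Vdac2* was described by values, medians and overlap, with no test. The members and lists were chosen with earlier results of these data known. The genes named are the 10 members and *Vdac2*, all genes of the lists of kinases, phosphatase subunits, relay and receptors, the 3 most abundant of each other pathway list, and the gene most similar to each member. Cell type markers are given mainly as sums. Genes outside this rule were named after their values were seen. Only the label fit was tested on simulated data, which had the same dispersion for every gene and no library set apart as library 3 is. The arrangement by *Vdac2* and the counts of the lists were not part of that test.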

Additional observations from a re-analysis of the deposited data

Results flagged for a closer look

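Among the 5 libraries labelled WT, 3 values lay far from the others by Dixon's test for a single outlying sample, all in library 3. *Atf3* was at 28.5 CPM there, against 4.09 to 5.55 CPM in the other libraries with that label. *Gdf15* was at 33.5 CPM, against 0.256 to 2.99 CPM. *Nppa* was at 3347 CPM, against 73.8 to 951 CPM. The test was made on 24 sets of values (the members, *Vdac2* and *Nppa*, each under both labels), and chance marks about 5% of them. The summed cardiomyocyte markers in library 3 were 11770 CPM, against at least 40960 CPM in every other library, and their part in these values was not tested.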

How the results depend on the processing

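No paired analysis was possible because the labelled groups share no replicate numbers. The label comparison called 9 genes, 8 to 11 with RLE or upper-quartile scaling, no filter, mitochondrially encoded genes left out or the *Vdac2* covariate, and 70 with DESeq2. With a library left out it called 5 to 62, the most without library 3 and the fewest without library 1, 2 or 4. It called 324 with the *Vdac2* level as a covariate and library 3 left out, which was added after the data were seen. The cause of these shifts was not tested. None of the 9 tested members was called under any setting, but DESeq2 gave no adjusted p for *Atf3* and *Gdf15*. The log2 fold change of *Chac1*, 0.0047, became -0.00082 with DESeq2, -0.00087 with RLE scaling and -0.11 with the covariate and library 3 left out, a fit that also gave 0.013 for *Atf4* and -0.089 for *Ddit3*. With each library left out the ranges that include both signs were -0.21 to 0.033 for *Atf4* and -0.57 to 0.046 for *Atf5* (positive without library 5), -1.27 to 0.0049 for *Atf3* (positive without library 3), -0.10 (without library 3) to 0.23 (without library 5) for *Ddit3* and -0.24 (without library 7) to 0.36 (without library 5) for *Chac1*. *Trib3* ranged from -1.37 to -0.45, *Gdf15* from -3.46 to -0.44, *Sesn2* from -0.64 to -0.14 and *Nupr1* from -0.68 to -0.16.

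In the arrangement by *Vdac2*, 8 members were without overlap, also with any 1 of the libraries left out, where the share over all genes was 8.77% to 9.91% against 7.16% with all 8, and with scaling by the total count alone (11.3%). The count was 4 with library 3 among the low-*Vdac2* libraries, 8 within the libraries labelled WT (24.5% of all genes) and 9 within those labelled KO (20.7%). The log2 ratio of *Atf3* turned to -0.22 within the libraries labelled WT. Depth limits *Fgf21* most, at 0 to 15 counts a library, and *Gdf15* in the high-*Vdac2* libraries, at 7 to 15 counts.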

Other observations

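Targets of p53, several of which overlap in function with the stress-response genes, were looked at as a further list. Of 9 tested, 2 lay higher in all low-*Vdac2* than in all high-*Vdac2* libraries and 0 lay lower, beside 7.16% and 4.93% of all tested genes, with a median log2 ratio of 0.18. With so few genes, nothing is read from this share. *Phlda3*, a repressor of AKT signalling, was between 9.85 and 15.1 CPM against 4.68 to 6.68 CPM, and *Eda2r*, a receptor of the TNF receptor family, between 12.4 and 14.2 CPM against 8.12 to 8.63 CPM. *Phlda3* is named after its values were seen. The most abundant of the list, *Ccng1* (1456 to 1803 against 1467 to 1606 CPM) and *Mdm2* (56.5 to 64.5 against 53.1 to 57.7 CPM), overlapped. In library 3 every target of the list except *Ccng1* was above the high-*Vdac2* median, with *Phlda3* and *Eda2r* at 37.4 and 27.2 CPM. *Ccng1* was at 853 CPM, lower than in any other library. It made up most of the summed list, which was at 1075 CPM against 1559 to 1917 CPM elsewhere. The median of the list in library 3 was 1.71 above the high-*Vdac2* level on the log2 scale. None of the 9 was called between the labels by edgeR's quasi-likelihood test, with 1 at an unadjusted p under 0.05, where 6.11% of all tested genes were.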
